A study of Mus musculus with 7 samples.

Results

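The heat shock proteins and co-chaperones described here were 10 genes picked by their symbols, with earlier results of these data known, from the 32285 genes counted in single cells of mouse brain microvessels. They were the cytosolic HSP70 chaperones Hspa1a, Hspa1b and Hspa8, their partners Dnajb1 and Hsph1, the cytosolic HSP90 Hsp90aa1, the small heat shock protein Hspb1, the HSP70 of the endoplasmic reticulum Hspa5, and the mitochondrial chaperonin pair Hspd1 and Hspe1. All 10 were found, and all 10 passed the filter on low counts in every test. Hspa1a and Hspa1b are near-identical copies, so their sum was also followed.

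Chaperones hold or refold proteins that have lost their shape. When unfolded proteins gather in the cytosol, heat shock factor Hsf1 is freed from chaperones and switches on genes with heat shock elements in their promoters, among them the inducible HSP70 genes, Dnajb1 and Hsph1. HSP70 takes up a client with the help of a J protein such as Dnajb1 and lets it go with the help of an exchange factor such as Hsph1, and HSP90 receives some of these clients for late folding. The endoplasmic reticulum and the mitochondrion have chaperones of their own, under the unfolded protein responses of those compartments. In tissue that is digested to single cells, inducible members of the family and immediate early genes are known to be switched on during the preparation.

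The series held 7 libraries of brain microvessel cells, each from 1 hemisphere without cerebellum, brain stem or olfactory bulb. The mice were untreated C57Bl6, named WT in the sample titles: 3 libraries were labelled 12 months and 4 were labelled 3 months. All 7 preparations shared collagenase digestion at 37 °C, in 2 steps of 10 minutes, and capture on anti-CD31 beads, CD31 being an endothelial adhesion protein encoded by Pecam1. The labels do not say whether each library came from a separate mouse, so p-values measure the spread between libraries. Single indexes and Cell Ranger 4.0.0 were used at 12 months, and dual indexes and Cell Ranger 6.1.1 at 3 months. Age cannot be told apart from these differences or from depth, so each 12 over 3 month value is a difference between 2 sets of libraries.

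After filtering, 37176 of 43091 barcodes were kept, at a median of 1094 to 2780 UMIs (unique molecular identifiers, each standing for 1 captured RNA molecule) per cell in the 12-month libraries, against 3073 to 5328 in the 3-month libraries. Ddx3y, a Y-linked gene, had more UMIs than Xist, a gene expressed in female cells, in 3 of 3 libraries at 12 months and in 2 of 4 at 3 months. In 3-month replicates 1 and 2 Xist had 665 and 961 CPM and Ddx3y 0.0 CPM. The mix of libraries by these sex-linked genes thus also differed between ages. Pairs of libraries shared 1 to 15 cell barcodes. Clusters were named from marker genes, with the 10 heat shock genes kept out of the clustering: 15525 capillary-like, 1860 arterial-like and 2186 venous-like endothelial cells, 1205 smooth muscle-like cells, 827 pericyte-like cells and 2651 microglia-like cells, called below without the suffix. The capillary class joined 3 clusters and the arterial class joined 2. The other 12059 cells without a name, the B, T and NK and erythroid cells were not compared. UMIs were summed per library and class, which gave 42 sums of 48638 to 17249019 UMIs, and levels are given as CPM, a gene's UMIs divided by all UMIs of the sum and scaled to 1000000.

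The sums were checked for RNA of endothelial cells, the captured type. Summed over 10 endothelial markers, pericyte sums held 59.2 ± 12.6% of the capillary level (SD, n = 7), whereas smooth muscle sums held 4.30 ± 1.85% and microglial sums 2.63 ± 1.98%. All pericyte values below therefore include RNA with endothelial markers at 34.4 to 73.7% of the capillary level. Its part in the pericyte levels was tested only by leaving out pericytes with many endothelial UMIs. This was done against smooth muscle cells and not between ages.

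Across cell classes, microglia had the highest mean level of 8 of the 10 genes, and smooth muscle cells the highest of the other 2, Hsph1 and Hspb1. Hspb1 was the gene that differed most: it was low in microglia and high in every vascular class. Among endothelial segments the venous class stood above the capillary class for the inducible pair, Dnajb1 and Hspe1 and below it for Hspb1 and Hsp90aa1. Means over the 7 libraries hide a wide spread, and neighbouring classes in the order of levels were often within it: of the 5 steps in the order, 1 step exceeded the spread over libraries for Hspa1a and none did for Hspa1b.

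Counting calls at an adjusted p under 0.05 in edgeR's quasi-likelihood test, with library as a term, 10 of 10 members differed between microglia and capillary cells (9 higher, 1 lower), where 71.8% of all genes did (28.8% higher, 43% lower). In smooth muscle over capillary cells 8 of 10 differed (6 higher, 2 lower), against 65.8% of all genes (27.8% higher, 37.9% lower). In pericytes over smooth muscle cells 9 of 10 differed (1 higher, 8 lower), against 50.8% (20.6% higher, 30.2% lower). Between segments, 5 of 10 differed in arterial over capillary cells (3 higher, 2 lower) against 38% of all genes (15.8% higher, 22.1% lower). In venous over capillary cells 6 of 10 differed (4 higher, 2 lower) against 41.8% (17.3% higher, 24.6% lower), and in venous over arterial cells 6 of 10 (3 higher, 3 lower) against 40.4% (21.6% higher, 18.8% lower). Since most or many genes differ between any of these classes, the counts by themselves say little about the heat shock genes, and their directions and sizes follow by role. Comparisons over the capillary class share its 7 sums.

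**Figure D1:**
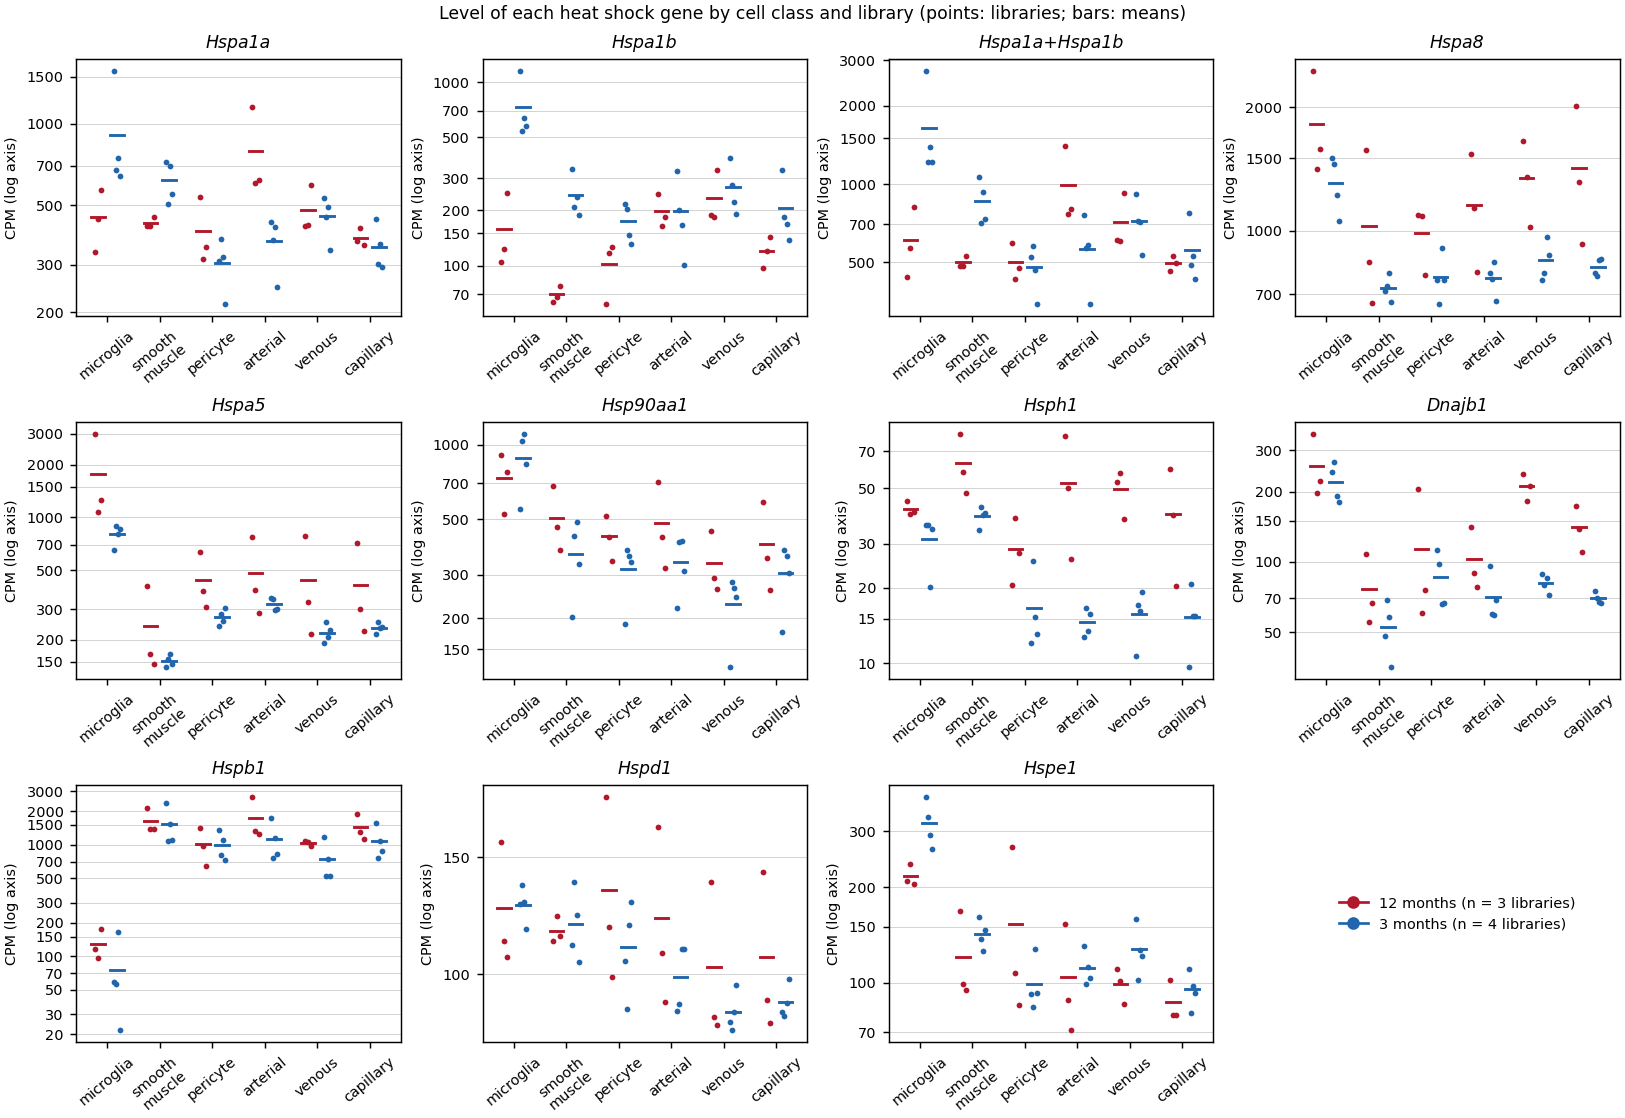
Level of each heat shock gene, and of Hspa1a and Hspa1b summed, in 6 cell classes (CPM of summed UMI counts, log axis; 1 point per library, bars are means, 12 months in red left of 3 months in blue). Hspb1 in microglia sits between 21.6 and 176 CPM, under every library of the other 5 classes, and Hspa5 is highest in microglia within each library, though the ranges over libraries overlap.

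Hspa1a (chromosome 17, 34969190 to 34972156, minus strand, GRCm38) and Hspa1b (chromosome 17, 34956436 to 34959238, minus strand) encode the same inducible HSP70, which is low in unstressed cells and made in bulk after heat or other protein damage. They lie side by side, and Hspa1a overlaps Gm20481 on the opposite strand by 2225 bases. Of all 50-base windows of the Hspa1a transcript, 58.8% also occur in Hspa1b, and 62.3% the other way round, but none of those in the last 500 bases do, the end that 3′ libraries sample most. The assignment of reads between the copies is uncertain, so their sum is given beside each copy. The promoters are shown because they are nearly identical: in the 300 bases from 250 before to 50 after the start, from RefSeq on GRCm38.p6, the copies differ at 4 places, 3 of them before the start. The 250 bases before each start read, 5′ to 3′ on the gene's strand, with capitals at the 3 differing bases:

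Hspa1a (chr17:34972157-34972406, minus strand): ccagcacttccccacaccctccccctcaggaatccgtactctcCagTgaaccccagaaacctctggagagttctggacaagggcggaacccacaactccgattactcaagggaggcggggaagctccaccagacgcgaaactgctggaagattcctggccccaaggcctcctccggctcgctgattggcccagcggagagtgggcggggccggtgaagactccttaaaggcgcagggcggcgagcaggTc
Hspa1b (chr17:34959239-34959488, minus strand): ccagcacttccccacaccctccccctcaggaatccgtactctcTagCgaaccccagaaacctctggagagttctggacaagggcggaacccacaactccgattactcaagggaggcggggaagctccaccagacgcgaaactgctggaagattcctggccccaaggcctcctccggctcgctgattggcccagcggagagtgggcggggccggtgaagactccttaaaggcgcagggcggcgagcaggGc

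Counted from 1 at the first base printed and from Hspa1a to Hspa1b, the substitutions are C44T, T47C and T249G, and the fourth, C276T, lies after the start.

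The summed pair was present in every class and had its highest mean over the 7 libraries, with the widest spread, in microglia. Its lowest, median and highest library values were 440.1, 1215 and 2728 CPM in microglia, 348, 762 and 1400.0 CPM in arterial, 533, 713 and 925 CPM in venous, 483, 712 and 1061 CPM in smooth muscle, 433, 498 and 776 CPM in capillary and 345, 477 and 596 CPM in pericyte sums. The classes overlap, and only the step from smooth muscle to capillary cells in this order was larger than the spread of the library-by-library difference. Microglia led in each 3-month library, whereas at 12 months their mean lay below the arterial and venous means. In 12-month replicate 1 microglia had 440.1 CPM and arterial cells 1400.0 CPM. In the paired test the sum was higher in venous than in capillary cells (0.43 ± 0.07 on the log2 scale, adjusted p = 1.70e-05, higher in 7 of 7 libraries), higher in smooth muscle than in capillary cells (0.51 ± 0.12, adjusted p = 0.00109, 6 of 7) and higher in microglia than in capillary cells (0.89 ± 0.19, adjusted p = 0.000527, 6 of 7). It was lower in pericytes than in smooth muscle cells (-0.94 ± 0.14, adjusted p = 3.40e-06, lower in 6 of 7), a call that held in each alternative while its size ran from -0.54 with total counts to -2.66 without pericytes rich in endothelial markers.

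Each copy alone showed where these differences sat. In venous over capillary cells Hspa1b was higher by 0.60 ± 0.08 (SE) and Hspa1a by 0.35 ± 0.07 (SE), each in 7 of 7 libraries (adjusted p = 5.90e-06 and 0.000178). In smooth muscle over capillary cells Hspa1a was higher (0.69 ± 0.12, adjusted p = 3.78e-05, 7 of 7 libraries) while Hspa1b differed by 0.09 ± 0.15 (SE) (adjusted p = 0.615). In arterial over capillary cells Hspa1a was higher by 0.41 ± 0.14 (SE) (adjusted p = 0.0311) in 5 of 7 libraries, a call that is lost without any 1 of the 12-month libraries (adjusted p = 0.0518, 0.0579 and 0.0872 without replicates 1, 2 and 3), at 50 CPM or more (0.0554) and in DESeq2 (0.125).

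Within the endothelium the summed pair also varied between clusters of 1 segment. The arterial cluster led by Fbln5, Cytl1 and Mgp had 1193 ± 325 CPM (SD, n = 7 libraries), and the arterial cluster led by Gkn3 had 635 ± 340.0 CPM. The 3 capillary clusters had 643 ± 194, 495 ± 109 and 352 ± 99.9 CPM. An endothelial cluster of 4020 cells that hemoglobin genes led, left without a name, had 104 ± 96.9 CPM, the lowest of the endothelial clusters with 4 or more libraries. Its leading genes also included the capillary markers Slc16a1, Tfrc and Slc7a5. The cluster held 127 of 5006, 372 of 5993 and 633 of 8912 cells in the 12-month libraries. In the 3-month libraries it held larger shares: 584 of 3951, 709 of 3978, 1003 of 5541 and 592 of 3795. These cells were in no class compared, and the part of leaving them out in the differences between ages was not tested. A cluster's level is a description here, since cells were grouped by other genes that may vary with these.

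Hspa8 (chromosome 9, 40800984 to 40810087, plus strand) encodes the constitutive HSP70, which folds new proteins and strips clathrin from vesicles. Its lowest, median and highest library values were 1053, 1455 and 2455 CPM in microglia, 777, 852 and 2018 CPM in capillary, 759, 967 and 1659 CPM in venous, 672, 794 and 1542 CPM in arterial, 661, 779 and 1089.7 CPM in pericyte and 664, 732 and 1575 CPM in smooth muscle sums. These ranges overlap, and the highest value of each class came from 12-month replicate 1. Within libraries, Hspa8 was higher in microglia than in capillary cells (0.45 ± 0.12 on the log2 scale, adjusted p = 0.00292, 7 of 7 libraries) and higher in venous than in arterial cells (0.25 ± 0.07, adjusted p = 0.008, 6 of 7). It was lower in arterial than in capillary cells (-0.23 ± 0.07, adjusted p = 0.0109, lower in 6 of 7), but not past the threshold without 12-month replicate 3 (-0.19, adjusted p = 0.0599), with sums thinned to equal depth (0.124) or with cells clustered at resolution 1.0 in place of 0.5 (0.489). Its called direction between pericytes and smooth muscle cells, -0.32 ± 0.11 (SE) with adjusted p = 0.0188, reversed to 0.08 (adjusted p = 0.539) when counts were scaled by totals and was not called in 8 other alternatives, leaving out single libraries among them.

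Dnajb1 (chromosome 8, 83608193 to 83612653, plus strand), the J protein that stimulates HSP70, was highest in microglia at 179.9, 222 and 353 CPM (lowest, median and highest), then in venous cells at 72.1, 89.0 and 239 CPM, and lowest in smooth muscle cells at 35.4, 58.4 and 108 CPM. No microglial library overlapped the smooth muscle range, whereas the venous range overlapped that of every other class. Over capillary cells it was higher in microglia (1.23 ± 0.13 on the log2 scale, adjusted p = 2.57e-07) and in venous cells (0.38 ± 0.08, adjusted p = 0.000314), each in 7 of 7 libraries. It was lower in smooth muscle than in capillary cells in 7 of 7 (-0.50 ± 0.13, adjusted p = 0.00287), though not past the threshold with classes at resolution 1.0 (adjusted p = 0.128).

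Hsph1 (chromosome 5, 149614287 to 149636376, minus strand), an HSP110 that exchanges nucleotide on HSP70, was the least counted of the 10, with 1 to 364 UMIs per sum. Smooth muscle sums held 33.9, 41.9 and 82.3 CPM, and pericyte sums held 12.1, 20.6 and 38.0 CPM. It was higher in smooth muscle than in capillary cells (1.16 ± 0.15 on the log2 scale, adjusted p = 9.36e-07, 7 of 7 libraries) and lower in pericytes than in smooth muscle cells (-1.40 ± 0.19, adjusted p = 1.21e-06, lower in 7 of 7). Its call in microglia over capillary cells (0.57 ± 0.21, adjusted p = 0.024) was lost without 12-month replicate 3 or 3-month replicate 1, 2 or 4 (adjusted p = 0.126, 0.0766, 0.0542 and 0.0644).

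Hsp90aa1 (chromosome 12, 110690605 to 110702728, minus strand), the stress-responsive cytosolic HSP90, ran from 528, 833 and 1106 CPM in microglia down to 127, 265 and 448 CPM in venous cells. It was higher in microglia than in capillary cells (1.20 ± 0.14 on the log2 scale, adjusted p = 6.00e-07) and higher in smooth muscle than in capillary cells (0.42 ± 0.08, adjusted p = 9.64e-05), in 7 of 7 libraries each. Venous cells had less of it than capillary cells (-0.34 ± 0.06, adjusted p = 8.69e-05, lower in 6 of 7 libraries) and than arterial cells (-0.48 ± 0.07, adjusted p = 1.68e-05, lower in 7 of 7). The arterial over capillary difference of 0.16 ± 0.06 (SE) (adjusted p = 0.0416) was higher in 7 of 7 libraries but missed the threshold in 5 of the 7 fits that left out a library (adjusted p up to 0.0943).

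Hspb1 (chromosome 5, 135887919 to 135889563, plus strand) encodes HSP27, a small heat shock protein that holds unfolded proteins without ATP and binds actin. Its lowest, median and highest library values were 1083, 1379.6 and 2372 CPM in smooth muscle, 764, 1239 and 2679 CPM in arterial, 755, 1120.1 and 1884 CPM in capillary, 642, 969.7 and 1419 CPM in pericyte, 519, 970.3 and 1175 CPM in venous and 21.6, 95.5 and 176 CPM in microglial sums. No microglial library reached the lowest library of any vascular class. The difference of microglia from capillary cells was -3.81 ± 0.25 on the log2 scale, adjusted p = 2.77e-10, lower in 7 of 7 libraries. Hspb1 was the only member called lower there.

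The remaining Hspb1 UMIs of microglia and the endothelial marker UMIs of the same sums were each set against the capillary level of the same library. Hspb1 in microglia amounted to 6.15, 7.39 and 15.7% of the capillary level in the 12-month libraries, against 3.71, 7.52, 15.3 and 2.48% in the 3-month libraries. The 10 endothelial markers amounted to 1.76, 7.0 and 2.38% in the same 12-month libraries, against 1.27, 2.36, 2.17 and 1.45% in the 3-month libraries. Hspb1 stood above the markers in 7 of 7 libraries, barely so in 12-month replicate 2. B cells had lower Hspb1 levels than microglia in 5 of the 6 libraries with enough B cells. Microglia of these 5 had 15.7, 3.71, 7.52, 15.3 and 2.48% of the capillary level, against 5.04, 3.29, 2.74, 4.68 and 0.79% in B cells. In the sixth, 12-month replicate 2, it was 7.39% in microglia and 40.2% in B cells, whose endothelial markers there stood at 25.0%. With cells thinned to 1000 UMIs, an Hspb1 UMI was held by 1.83 to 8.48% of microglia (7 libraries), by 2.04 to 6.12% of B cells in the same 5 libraries and 24.3% in the other, and by 2.94 to 16.1% of T and NK cells (4 libraries). The shares of microglia overlapped those of these blood cells and were far under the 61.9 ± 10.7% of capillary cells (SD, n = 7). Without thinning the shares were 9.11 ± 3.44% of microglia and 88.1 ± 7.27% of capillary cells. The part of free RNA in the microglial UMIs was not tested.

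**Figure D2:**
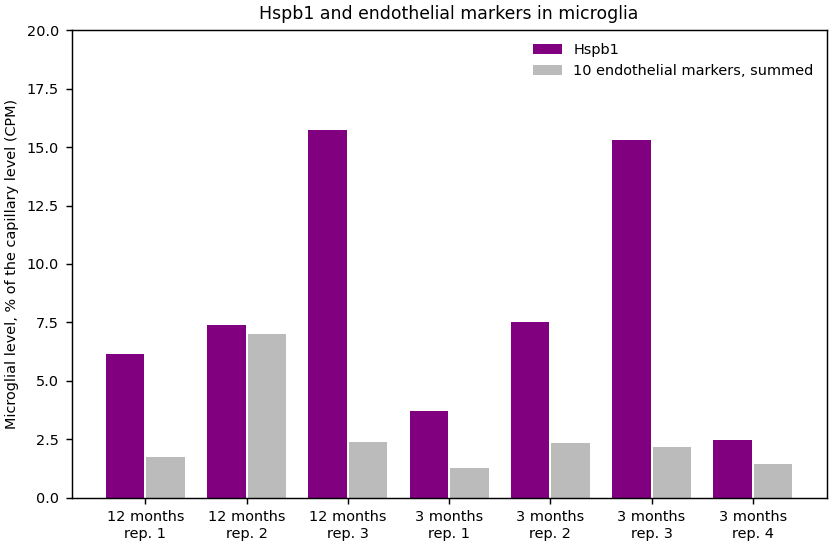
Hspb1 and 10 endothelial markers summed in microglia, each as a percentage of its capillary level in the same library (bars, 7 libraries, 12 months left of 3 months). Hspb1 runs from 2.48 to 15.7% and the markers from 1.27 to 7.0%.

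Among vascular cells Hspb1 was higher in smooth muscle than in capillary cells (0.48 ± 0.10 on the log2 scale, adjusted p = 0.000191, 7 of 7 libraries). It was lower in venous than in capillary cells (-0.51 ± 0.06, adjusted p = 1.03e-06), lower in venous than in arterial cells (-0.56 ± 0.10, adjusted p = 8.75e-05) and lower in pericytes than in smooth muscle cells (-1.04 ± 0.10, adjusted p = 3.78e-09), each in 7 of 7 libraries. Smooth muscle cells, with few endothelial marker UMIs, stood at 129 ± 17.0% of the capillary Hspb1 level (SD, n = 7). Pericytes stood at 84.0 ± 17.2% with their endothelial markers at 59.2 ± 12.6%; without pericytes that held more than 0.5% endothelial marker UMIs, in 5 libraries, the pericyte over smooth muscle difference was -2.06 and also called.

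Hspa5 (chromosome 2, 34771970 to 34777547, plus strand) encodes BiP, the HSP70 of the endoplasmic reticulum, which releases the sensors of the unfolded protein response when its clients pile up. Its promoter is shown because among the 8 members with promoter entries, which leave out Hspa8 and Hsp90aa1, it alone held a full ER stress element (CCAAT, then CCACG 9 bases further on, on either strand), which 39 of 32851 RefSeq promoters of the same 300-base span hold (0.119%), or 37 of 27025 genes. The element, in capitals, lies 65 bases before the start in the 250 bases printed (RefSeq, GRCm38.p6, 5′ to 3′):

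Hspa5 (chr2:34771840-34772089, plus strand): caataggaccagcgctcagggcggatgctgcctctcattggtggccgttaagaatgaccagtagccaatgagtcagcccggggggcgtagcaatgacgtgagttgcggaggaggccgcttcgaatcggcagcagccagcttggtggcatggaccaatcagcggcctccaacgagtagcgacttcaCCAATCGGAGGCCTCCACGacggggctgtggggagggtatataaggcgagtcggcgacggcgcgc

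The lowest, median and highest library values of Hspa5 were 652, 896 and 3001 CPM in microglia, 286, 344 and 770.2 CPM in arterial, 241, 306 and 637 CPM in pericyte, 191, 227 and 779.7 CPM in venous, 217, 236 and 711 CPM in capillary and 139, 155 and 404 CPM in smooth muscle sums. Microglia were highest in each library, and 12-month replicate 1 held the highest value of every class. Over capillary cells, Hspa5 was higher in microglia (1.82 ± 0.12 on the log2 scale, adjusted p = 2.35e-10) and in arterial cells (0.32 ± 0.06, adjusted p = 0.000414), each in 7 of 7 libraries, and lower in smooth muscle cells in 7 of 7 (-0.57 ± 0.08, adjusted p = 4.24e-06). Venous cells were lower than arterial cells (-0.33 ± 0.08, adjusted p = 0.00279, lower in 6 of 7), and pericytes were higher than smooth muscle cells (0.52 ± 0.11, adjusted p = 0.000304, 7 of 7), a call lost with thinned sums (adjusted p = 0.133). After thinning each cell to 1000 UMIs, 60.7 ± 14.5% of microglia held an Hspa5 UMI, against 24.5 ± 9.84% of capillary and 16.0 ± 6.92% of smooth muscle cells (SD, n = 7).

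Hspd1 (chromosome 1, 55077835 to 55088243, minus strand) and Hspe1 (chromosome 1, 55088132 to 55091307, plus strand) encode HSP60 and HSP10, the barrel and the lid of the mitochondrial chaperonin. They lie head to head and overlap by 112 bases on opposite strands, and the sources used here do not say whether reads were counted by strand. The stretch before the Hspe1 start, which lies within Hspd1 as annotated, is shown because it holds 2 overlapping heat shock elements (GAA, TTC and GAA, or TTC, GAA and TTC, each 2 bases apart, on either strand), 89 and 84 bases before the Hspe1 start, in capitals. The same bases lie in a promoter entry of Hspd1 on the other strand. The 250 bases before the Hspe1 start read (RefSeq, GRCm38.p6, 5′ to 3′):

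Hspe1 (chr1:55087898-55088147, plus strand): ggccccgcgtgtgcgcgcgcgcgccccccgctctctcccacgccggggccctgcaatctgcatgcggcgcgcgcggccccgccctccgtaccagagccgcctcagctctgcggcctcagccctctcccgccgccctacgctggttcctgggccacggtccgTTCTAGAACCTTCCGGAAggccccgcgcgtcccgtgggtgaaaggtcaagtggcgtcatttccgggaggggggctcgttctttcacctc

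Of the 8 members with promoter entries, 3 held such an element (Hspd1, Hspe1 and Hsph1), where 179 of 27025 genes do, or 198 of 32851 promoters (0.603%). The Hsph1 element lies 36 or 15 bases after the start, depending on the promoter entry. These exact letters were not in the window of Hspa1a, Hspa1b, Dnajb1, Hspb1 or Hspa5. Elements with a changed base or outside the window were not searched for. The lack of a match therefore does not show that these genes lack a heat shock element.

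Hspe1 was highest in microglia at 205, 265 and 385 CPM (lowest, median and highest library), above the capillary sums at 79.1, 93.1 and 110.2 CPM with no overlap. Hspd1 varied little: its highest mean was 127 ± 17.4 CPM in microglia and its lowest 94.1 ± 19.8 CPM in venous cells (SD, n = 7). Over capillary cells Hspe1 was higher in microglia (1.47 ± 0.10 on the log2 scale, adjusted p = 9.01e-10), in smooth muscle cells (0.66 ± 0.09, adjusted p = 2.05e-06) and in venous cells (0.33 ± 0.06, adjusted p = 9.81e-05), each in 7 of 7 libraries. Hspd1 was higher in microglia by 0.30 ± 0.09 (SE) (adjusted p = 0.00737, 7 of 7, but 0.0819 with thinned sums) and in smooth muscle cells by 0.47 ± 0.10 (SE) (adjusted p = 0.000263, 6 of 7). Against smooth muscle, pericytes were lower for Hspe1 (-0.66 ± 0.14, adjusted p = 0.000369) and Hspd1 (-0.46 ± 0.13, adjusted p = 0.00372); under total-count scaling, which moved the median of all genes in that comparison by 0.39 on the log2 scale, neither call held (adjusted p = 0.111 and 0.67). Neither held without pericytes rich in endothelial markers (-0.46 and -0.15, adjusted p = 0.0553 and 0.559).

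Under total-count scaling 5 of the 10 members were called in pericytes over smooth muscle cells, 2 higher and 3 lower, in place of 1 higher and 8 lower. Changes there are best read relative to the median of all genes, which was -0.10 with TMM scaling, against -0.55 for the 10 members. The median log2 difference of the 10 members was 0.98 in microglia over capillary cells (all genes -0.20), 0.45 in smooth muscle over capillary cells (all genes -0.12), 0.13 in both arterial and venous over capillary cells (all genes -0.07 and -0.05) and 0.06 in venous over arterial cells (all genes 0.03).

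Between the sets of libraries of 12 and 3 months, the heat shock genes did not move as a block. Hsph1 was higher at 12 months in all 3 endothelial classes and Dnajb1 in capillary and venous cells, Hspa5 was higher in microglia, and Hspa1b was lower in smooth muscle cells and microglia. Hspa8, Hsp90aa1, Hspd1, Hspe1, Hspb1 and Hspa1a were called in no class.

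In capillary cells 2 of 10 members were called, both higher at 12 months, where 3.03% of all genes were called (2.24% higher, 0.794% lower). In venous cells 2 of 10 were called, both higher, against 2.45% (2.04% higher, 0.416% lower), and in arterial cells 1 of 10, higher, against 0.327% (0.285% higher, 0.0422% lower). In microglia 2 of 10 were called, 1 higher and 1 lower, against 1.89% (1.62% higher, 0.274% lower), and in smooth muscle cells 1 of 10, lower, against 0.213% (0.166% higher, 0.0473% lower). In pericytes edgeR called 0 of 10, against 1.71% of all genes (1.21% higher, 0.502% lower). Of these 10, 2 had an unadjusted p under 0.05 and DESeq2 called 0. Counted as libraries of the 2 ages that do not overlap in CPM, 5 of 10 members were apart in microglia (all genes 11.6%), 3 in venous cells (13.7%), 3 in smooth muscle cells (8.97%) and 2 each in capillary (15.7%), arterial (7.85%) and pericyte sums (10.8%). In capillary and pericyte sums the count apart was near the share of all genes. The median log2 difference of the 10 members was 0.45 in capillary, 0.60 in arterial, 0.57 in venous, 0.18 in smooth muscle, 0.22 in pericyte and 0.20 in microglial sums, where that of all genes was -0.04 to 0.01.

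**Figure D3:**
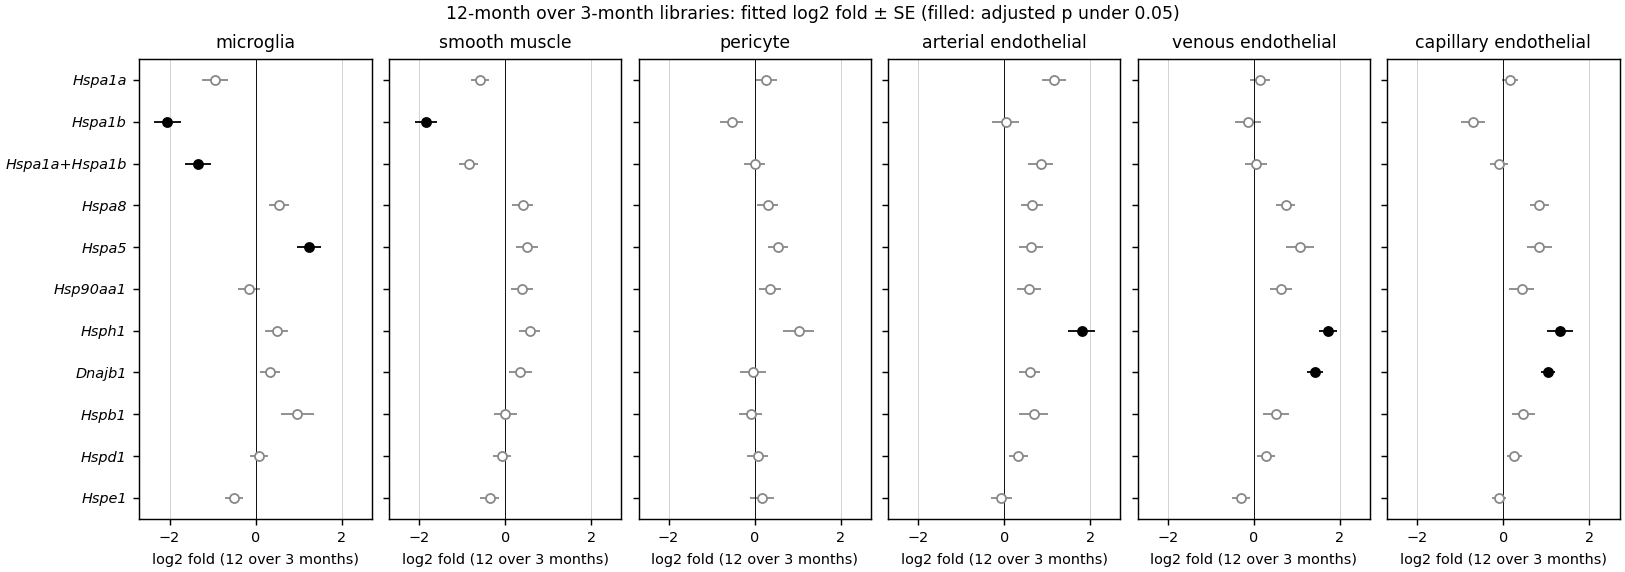
Log2 difference, 12 over 3 months, of each heat shock gene and of Hspa1a and Hspa1b summed in 6 cell classes (points are edgeR estimates, bars ± SE, 3 libraries against 4; filled where the adjusted p is under 0.05). Hsph1, Hspa8 and Hspa5 lie to the right of 0 in 6 of 6 classes, and Hspa1b lies left of 0 in 5 of 6.

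Dnajb1 in capillary cells had 173, 139 and 110.0 CPM in the 12-month libraries, against 74.8, 70.1, 67.6 and 67.0 CPM in the 3-month libraries. Each 12-month library stood above each 3-month library. Means were 141 ± 31.7 CPM at 12 months and 69.9 ± 3.55 CPM at 3 months (SD, n = 3 and 4), a difference of 1.05 ± 0.16 on the log2 scale, adjusted p = 0.00311. In venous cells Dnajb1 had 239, 181 and 211 CPM in the 12-month libraries, against 89.0, 79.9, 85.5 and 72.1 CPM in the 3-month libraries, again with no overlap (1.43 ± 0.19, adjusted p = 0.000716). Both calls held in every alternative that was run. Pericytes, with 206, 60.3 and 76.2 CPM in the 12-month libraries, against 113, 97.8, 66.4 and 66.9 CPM in the 3-month libraries, and smooth muscle cells, with 108, 55.4 and 66.6 CPM in the 12-month libraries, against 48.2, 69.0, 58.4 and 35.4 CPM in the 3-month libraries, overlapped between ages.

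Hsph1 in venous cells had 52.7, 57.6 and 37.7 CPM in the 12-month libraries, against 10.6, 17.1, 16.1 and 19.2 CPM in the 3-month libraries. The ages did not overlap, and the means were 49.3 ± 10.4 CPM at 12 months and 15.8 ± 3.66 CPM at 3 months (1.72 ± 0.21 on the log2 scale, adjusted p = 0.000421). In arterial cells Hsph1 had 80.4, 50.1 and 26.1 CPM in the 12-month libraries, against 12.8, 16.6, 13.4 and 15.7 CPM in the 3-month libraries, also apart (1.80 ± 0.31, adjusted p = 0.0149). In capillary cells it had 59.4, 38.9 and 20.3 CPM in the 12-month libraries, against 9.61, 20.7, 15.5 and 15.4 CPM in the 3-month libraries, where 12-month replicate 3 lay just under 3-month replicate 2 (1.32 ± 0.30, adjusted p = 0.0349).

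The capillary call of Hsph1 was lost without 12-month replicate 1 or 2 or 3-month replicate 3 or 4 (adjusted p = 0.133, 0.165, 0.0936 and 0.0878). The arterial call was lost without 12-month replicate 2 or 3-month replicate 3 or 4 (adjusted p = 0.0807, 0.0821 and 0.0743). Both calls were also lost among libraries with more Ddx3y than Xist. The capillary call was lost at resolution 1.0 and with the replicate block as well. The venous call held in every alternative that tested the gene. In the other classes the Hsph1 differences were 1.02 ± 0.37 (SE) in pericytes, 0.57 ± 0.24 (SE) in smooth muscle cells and 0.49 ± 0.27 (SE) in microglia, with adjusted p = 0.187, 0.529 and 0.532.

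Hspa8 had 2018, 1313 and 929.8 CPM in the 12-month libraries, against 786, 777, 849.5 and 852 CPM in the 3-month libraries in capillary cells. The 12-month values were spread widely, with replicate 1 highest, and stood above the 3-month values without overlap, yet the difference of 0.84 ± 0.22 (SE) did not pass the test (adjusted p = 0.0671). The venous ages were likewise apart (0.74 ± 0.22, adjusted p = 0.112). Across the 6 classes the Hspa8 difference ran from 0.30 to 0.84.

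Hspa1b in microglia had 105, 124 and 249 CPM in the 12-month libraries, against 1152, 543, 638 and 578 CPM in the 3-month libraries. The 12-month libraries were all below the 3-month libraries, of which replicate 1 stood highest. Means were 159 ± 78.1 CPM at 12 months and 728 ± 285 CPM at 3 months (SD, n = 3 and 4), a difference of -2.05 ± 0.32 on the log2 scale, adjusted p = 0.000605, or -1.68, adjusted p = 0.00216 without 3-month replicate 1. Smooth muscle cells had an Hspa1b level of 63.6, 67.9 and 78.0 CPM in the 12-month libraries, against 338, 209, 236 and 189 CPM in the 3-month libraries, again apart (-1.83 ± 0.25, adjusted p = 0.000805).

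Hspa1a differed less. It had 335, 444 and 570.1 CPM in the 12-month libraries, against 1577, 672, 747 and 641 CPM in the 3-month libraries in microglia (-0.94 ± 0.30, adjusted p = 0.136). Smooth muscle cells had an Hspa1a level of 419, 418 and 453 CPM in the 12-month libraries, against 723, 503, 697 and 549 CPM in the 3-month libraries (-0.58 ± 0.21, adjusted p = 0.38). In both classes the ages were apart, and in neither did the difference pass the test.

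The sum of the copies does not depend on how counted reads were split between them, though reads given to neither copy would be missing. In microglia the sum had 440.1, 567 and 819 CPM in the 12-month libraries, against 2728, 1215, 1385 and 1218 CPM in the 3-month libraries. The ages did not overlap (-1.35 ± 0.30 on the log2 scale, adjusted p = 0.0176). The call was lost without 12-month replicate 1 or 2 (adjusted p = 0.134 and 0.06), among the libraries with more Ddx3y than Xist UMIs (adjusted p = 0.11), in DESeq2 (0.104) and with the replicate number as a block (0.0733). Smooth muscle cells had a sum of 483, 486 and 531 CPM in the 12-month libraries, against 1061, 712, 933 and 738 CPM in the 3-month libraries, apart but not past the test (-0.85 ± 0.22, adjusted p = 0.129). In capillary, venous and pericyte sums the ages overlapped, with differences of -0.11 ± 0.21 (SE), 0.04 ± 0.26 (SE) and -0.00 ± 0.25 (SE).

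Arterial cells went the other way for Hspa1a, with 1153, 603 and 622 CPM in the 12-month libraries, against 434, 369, 415 and 247 CPM in the 3-month libraries. The 12-month libraries were above the 3-month libraries, with replicate 1 highest (1.15 ± 0.27, adjusted p = 0.115). The cluster led by Fbln5, Cytl1 and Mgp, the one with the higher Hspa1 level, held 191 of the 427 arterial cells of 12-month replicate 1, 55 of 405 in replicate 2 and 47 of 406 in replicate 3, against 28 of 128, 34 of 171, 25 of 185 and 30 of 138 in the 3-month libraries. Its part in the arterial difference was not tested.

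Hspa5 in microglia had 3001, 1073 and 1255 CPM in the 12-month libraries, against 652, 896, 799 and 858 CPM in the 3-month libraries. The 12-month values lay above the 3-month values, and replicate 1 stood far above the other two. Means were 1776 ± 1064 CPM at 12 months and 801 ± 107 CPM at 3 months, a difference of 1.24 ± 0.27 on the log2 scale, adjusted p = 0.0168. Without 12-month replicate 1 it was 0.63, adjusted p = 0.3, so its size and its call rest on 1 library. It was also lost without 3-month replicate 1 or 3 (adjusted p = 0.0526 and 0.0785). Libraries with more Ddx3y than Xist, cells with at least 1000 genes and the replicate block did not keep the call either. The Hspa5 difference was positive in 6 of 6 classes, from 0.51 to 1.24.

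Among the remaining members, Hspe1 was lower at 12 months in microglia without overlap, at 209, 236 and 205 CPM in the 12-month libraries, against 385, 333, 293 and 265 CPM in the 3-month libraries, but did not pass the test (-0.50 ± 0.21, adjusted p = 0.347). Hspb1 differed by -0.10 to 0.97, Hspd1 by -0.09 to 0.33 and Hsp90aa1 by -0.15 to 0.63 over the 6 classes, with no call. A missed threshold does not show that these genes were alike at both ages.

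Whether an age difference itself differed from that of capillary cells was tested with a class by age term. In microglia 3 of 10 members were called, all lower, where 3.14% of all genes were called (1.29% higher, 1.85% lower). The age difference there was below the capillary one by -1.36 ± 0.19 (SE) for Hspa1b (adjusted p = 6.56e-06), -1.01 ± 0.20 (SE) for Hspa1a (adjusted p = 0.00162), -1.20 ± 0.19 (SE) for their sum (adjusted p = 6.57e-05) and -0.69 ± 0.18 (SE) for Dnajb1 (adjusted p = 0.0193). The Dnajb1 term was lost in 6 of 18 alternatives: without 12-month replicate 2 or 3 or 3-month replicate 1 or 2 (adjusted p = 0.0565, 0.0548, 0.0752 and 0.11), among libraries with more Ddx3y than Xist (0.419) and with thinned sums (0.193). In smooth muscle cells 5 of 10 were called, all lower, against 2.55% of all genes (0.938% higher, 1.61% lower): Hspa1b by -1.22 ± 0.17 (SE) (adjusted p = 2.45e-05), Hspa1a by -0.77 ± 0.13 (SE) (adjusted p = 0.000356), and Hspb1, Hspa8 and Dnajb1 by -0.44, -0.46 and -0.76.

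In arterial cells 1 of 10 was called, higher, against 0.418% of all genes (0.117% higher, 0.301% lower): the Hspa1a difference exceeded the capillary one by 0.92 ± 0.19 (SE) (adjusted p = 0.0268), and that of the sum by 0.91 ± 0.19 (SE) (adjusted p = 0.0303). In venous cells 1 of 10 was called, against 1.65% of all genes (1% higher, 0.65% lower): Hspa1b was higher by 0.53 ± 0.12 (SE) (adjusted p = 0.0122). The Hspa1a term in arterial cells was lost without 3-month replicate 1, 2 or 4 (adjusted p = 0.1, 0.0554 and 0.196) and the Hspa1b term in venous cells without 12-month replicate 3 (0.36, adjusted p = 0.226). Both terms, and the Hspa1a term in microglia, were also lost among libraries with more Ddx3y than Xist. In smooth muscle cells the Hspb1, Hspa8 and Dnajb1 terms were each lost in 9 to 11 of their alternatives, without most single libraries among them, whereas the Hspa1a term in smooth muscle cells and the Hspa1b and summed terms in microglia held in each.

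Other measures moved with age in the same sums. Summed immediate early genes ran at 24842 to 30905 CPM at 12 months and 12128 to 13797 CPM at 3 months in capillary cells, and in microglia at 34803 to 44498 CPM at 12 months and 20299.8 to 27970.4 CPM at 3 months. UMIs per cell were 2308 ± 1180.4 at 12 months and 6948 ± 1831 at 3 months in capillary cells (SD, n = 3 and 4), and in microglia 1795 ± 607 at 12 months and 3879 ± 816 at 3 months. Endothelial markers in microglia summed to 356 to 1595 CPM at 12 months and 297 to 532 CPM at 3 months. Microglial markers in capillary cells summed to 102 to 264 CPM at 12 months and 41.1 to 61.3 CPM at 3 months. Endothelial markers in pericyte sums stood at 55.6, 57.6 and 34.4% of the capillary level in the 12-month libraries. In the 3-month libraries they stood at 60.3, 73.7, 69.0 and 63.5%, without overlap. Their part in the heat shock differences was not tested. Sums were also thinned to the smallest sum of each class, which evens the UMIs per sum but not those per cell. Calls of Dnajb1 in capillary and venous cells and of Hsph1 in the 3 endothelial classes held there. So did those of Hspa1b in smooth muscle cells and microglia. The class by age terms held less well in thinned sums: 1 of 10 members was called in smooth muscle cells, Hspa1a, and 1 in microglia, Hspa1b. The smooth muscle term of Hspa1b was then -0.62 (adjusted p = 0.474), against -1.22 without thinning, and the microglial term of Hspa1a -1.0 (adjusted p = 0.0612).

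The split of the pair also differed between ages. Hspa1b made up 23.9, 21.8 and 30.4% of the summed pair in microglia at 12 months, against 42.2, 44.7, 46.1 and 47.4% at 3 months. In smooth muscle cells it made up 13.2, 14.0 and 14.7% at 12 months, against 31.8, 29.4, 25.3 and 25.6% at 3 months. In both classes the ages did not overlap. Means in capillary cells were 24.2 ± 4.22% at 12 months and 36.1 ± 5.27% at 3 months, and in venous cells, the 1 class of 6 in which the ages overlapped, 32.4 ± 3.01% at 12 months and 36.7 ± 4.56% at 3 months (SD, n = 3 and 4). In pericytes 12-month replicate 1 gave 10.3%, from 29 cells. Whether the lower Hspa1b share came with age or with the Cell Ranger version, the index or read assignment between near-identical copies cannot be told apart.

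**Figure D4:**
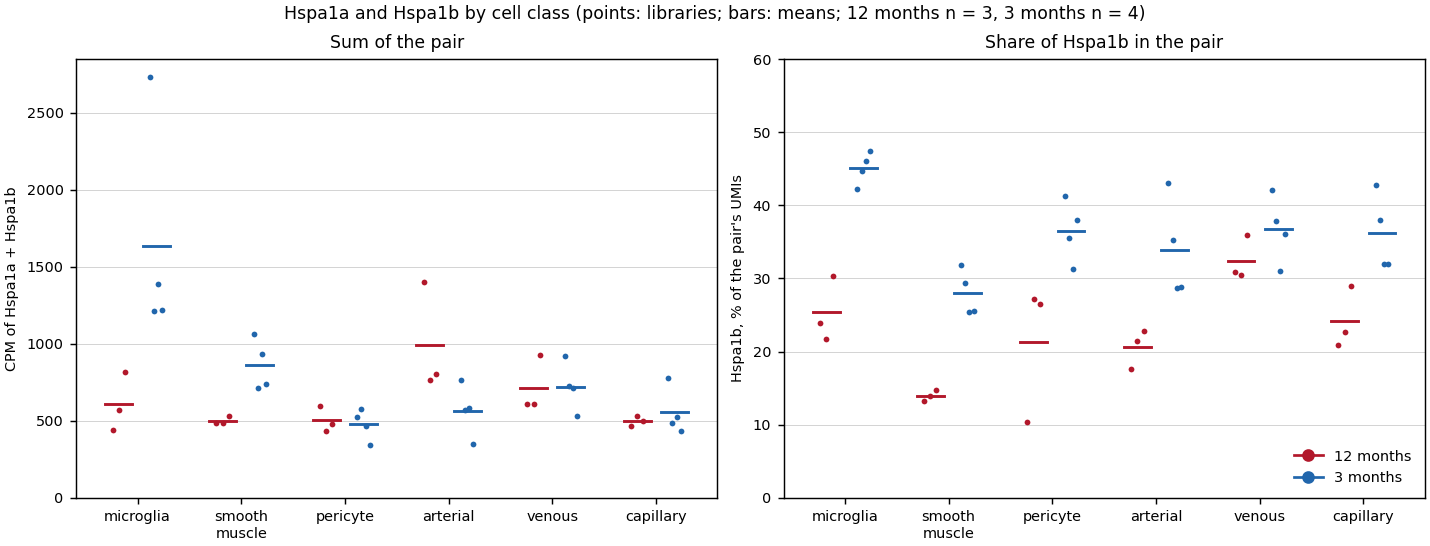
Hspa1a and Hspa1b summed (CPM) and Hspa1b as a percentage of the pair, by cell class, 12 months left of 3 months (points are libraries, bars are means). The share of Hspa1b lies between 10.3 and 35.9% in 18 sums of 12 months and between 25.3 and 47.4% in 24 sums of 3 months.

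Cells of 1 class did not carry the inducible pair evenly. With each cell thinned to 1000 UMIs, 37.1 ± 12.6% of microglia held at least 1 UMI of the pair (SD, n = 7), 36.6 ± 4.70% of venous, 36.4 ± 11.2% of arterial, 34.7 ± 8.11% of smooth muscle, 24.5 ± 3.29% of capillary and 19.7 ± 5.34% of pericyte cells (n = 6). The variance of the pair's UMIs over cells divided by its mean, which is 1 for pure counting, was 4.07 ± 1.40 in microglia and 2.27 ± 0.551 in capillary cells. Hsp90aa1 had 1.92 ± 0.36 in microglia and 1.14 ± 0.058 in capillary cells. Hspd1, Hspe1 and Hsph1 stayed near 1 in each class (0.958 to 1.30). The ratio comes near 1 for any gene with few UMIs per cell, so it cannot show whether these less counted genes were carried more evenly. Differences in the ratio between classes also follow the level in part. Thinning left out 405 of 988 microglia and 701 of 1444 capillary cells of 12-month replicate 1. It also left fewer than 20 of the 29 pericytes of that library, which is therefore missing from the pericyte values.

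**Figure D5:**
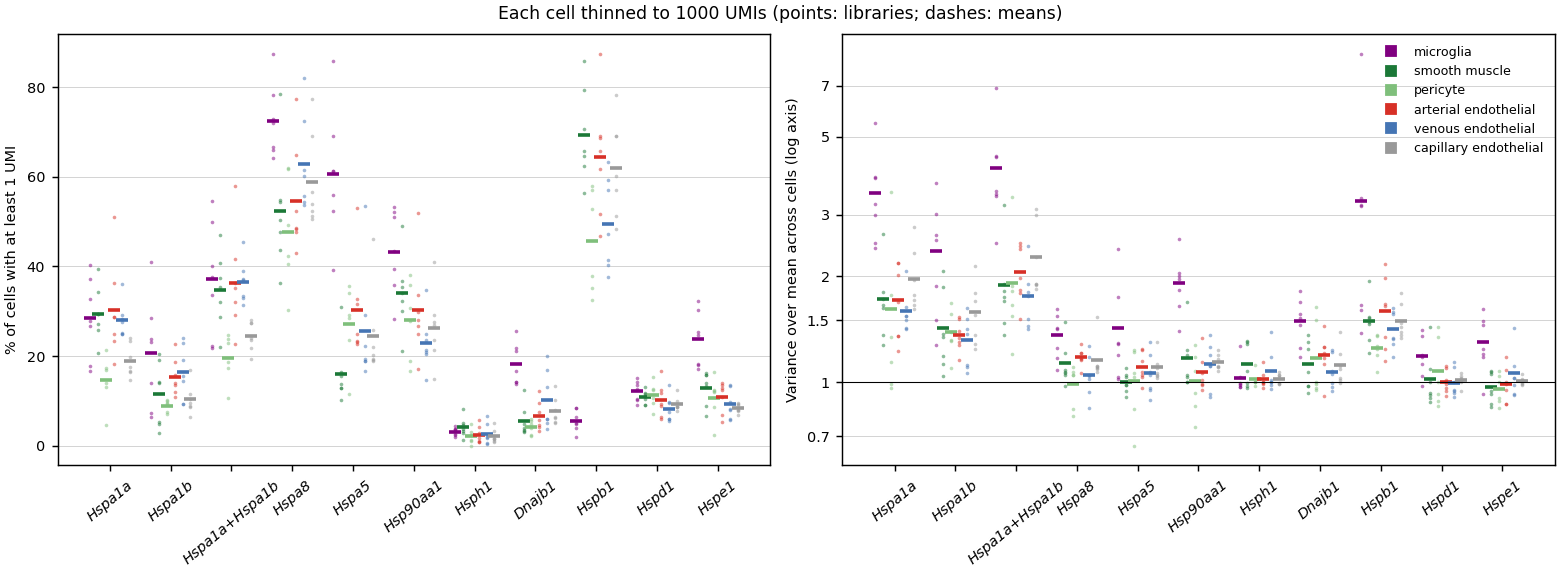
Share of cells with at least 1 UMI (percent) and variance over mean of UMIs per cell for the heat shock genes in 6 classes, each cell thinned to 1000 UMIs (points are libraries, bars are means). Hspb1 is held by 1.83 to 8.48% of microglia and Hspa5 by 39.2 to 85.9%.

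The wider chaperone network was followed in lists of genes by textbook role. Of 27 other genes of the endoplasmic reticulum and its unfolded protein response, 16 were higher and 3 lower in microglia than in capillary cells, with a median log2 difference of 0.37 (all genes -0.20), where 28.8% of all genes were higher and 43% lower. Sdf2l1, a partner of Hspa5 there, had 151 ± 36.2 CPM in microglia and 9.99 ± 2.99 CPM in capillary cells (log2 3.88 ± 0.12), while the collagen chaperone Serpinh1 was lower (log2 -5.95 ± 0.25). In smooth muscle over capillary cells 3 were higher and 21 lower of 27, with a median of -0.60 (all genes -0.12; 27.8% higher and 37.9% lower). Hspa5 was lower there too, and among the 21 were Xbp1, a transcription factor of the response (log2 -1.29 ± 0.11), and the J protein Dnajb9 (log2 -1.57 ± 0.11). Between segments the list was mixed, with 8 higher and 4 lower in arterial and 7 higher and 5 lower in venous over capillary cells, where 38% and 41.8% of all genes were called.

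Other small heat shock proteins joined Hspb1 in smooth muscle cells, where 5 of 6 were higher and 1 lower than in capillary cells (27.8% and 37.9% of all genes). Cryab, the lens crystallin that chaperones muscle filaments, had 434 ± 93.1 CPM in smooth muscle cells and 1.96 ± 1.04 CPM in capillary cells. The HSP90 system and HSP70 co-factors were lower in microglia than in capillary cells in 11 of 19 tested genes and higher in 1, beside 43% lower and 28.8% higher among all genes. Fkbp4, an HSP90 co-chaperone, was lower (log2 -1.10 ± 0.11). Of 14 genes of the cytosolic chaperonin and prefoldin, 9 were lower in microglia, beside the same 43% of all genes. Among other cytosolic HSP70 and HSP40 genes, Dnajb4, a J protein, had 126 ± 31.4 CPM in smooth muscle cells and 28.8 ± 3.92 CPM in capillary cells, and Hspa12b, an HSP70 of endothelial cells, had 8.51 ± 5.32 CPM in smooth muscle cells and 141 ± 21.5 CPM in capillary cells. The mitochondrial HSP70 Hspa9 moved with Hspe1 and Hspd1 in smooth muscle cells, at 117 ± 16.3 CPM, against 63.8 ± 10.2 CPM in capillary cells.

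Between ages these lists held few calls. The endoplasmic reticulum list had no call in any of the 6 classes, nor had the HSP90 system, the cytosolic chaperonin, the small heat shock proteins or the heat shock factors and their regulators, in edgeR's test. Other cytosolic HSP70 and HSP40 genes had 1 call, higher at 12 months, in each of capillary, venous and pericyte sums, and the mitochondrial list had 1 in capillary sums. Hspa2, an HSP70 best known from sperm development, was higher in pericytes of 12 months (241 ± 55.3 CPM) than of 3 months (119 ± 30.6 CPM; log2 1.05 ± 0.25). Endothelial markers in the pericyte sums also differed between these ages, as given above. Immediate early genes, in contrast, were called higher in 11 of 22 in capillary, 9 of 22 in venous, 4 of 21 in arterial, 4 of 21 in pericyte, 5 of 21 in microglial and 2 of 21 in smooth muscle sums, with none lower. Atf3, a stress-induced transcription factor, was higher in all 6 classes, by log2 3.42 ± 0.34 in capillary cells and 2.80 ± 0.39 in microglia.

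Genes whose levels over the 42 sums were most like a member's were found by Pearson's r of log2(CPM + 1) among 3582 genes with a mean of at least 50 CPM; the sums share libraries, depth and classes, so r is a description. For the summed inducible pair they were Tnfaip8 (r = 0.63), Clta (r = 0.614), Tmem176b (r = 0.614), Ssbp1 (r = 0.61) and Tmem176a (r = 0.606), the weakest likeness of the 5 members examined. For Hspa8 they were Ccnl1 (r = 0.867), Jun (r = 0.85), Tra2b (r = 0.83), Srrm2 (r = 0.826) and Ifrd1 (r = 0.809). For Hspa5 they were Rrbp1 (r = 0.912), Eif5 (r = 0.907), Hsp90b1 (r = 0.906), Ccnl1 (r = 0.899) and Sf3b1 (r = 0.889), of which Hsp90b1 encodes the HSP90 of the endoplasmic reticulum. For Hspb1 they were Rras (r = 0.951), Crip2 (r = 0.945), Dynll1 (r = 0.94), Igfbp7 (r = 0.932) and Bcam (r = 0.931). For Hspd1 they were Ncl (r = 0.727), Srrm2 (r = 0.695), Ccdc50 (r = 0.679), Epc2 (r = 0.65) and Arpc5 (r = 0.643). With a pseudocount of 10 the 5 leading genes were the same for each.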

How the data were processed

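RNA of single cells from CD31-captured mouse brain microvessels was sequenced in 7 libraries with 10x Genomics v3.1 chemistry on a NextSeq, per the labels. The authors deposited UMI counts per gene and barcode, whole and not normalized, made with Cell Ranger 4.0.0 (12 months) or 6.1.1 (3 months) per the file headers and with mm10 per the submitters' processing notes, which also name Seurat. Whether intronic reads were included and strand was used is not given in the sources used. Total counts per library ran from 8706961 to 44861008 UMIs.

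Cells with at least 500 genes and at most 15% mitochondrial UMIs were kept, and scrublet (scanpy 1.11.5) removed doublets at 0.8% per 1000 barcodes. Seurat 5.3.0 (RPCA over libraries, 2000 variable features without the 10 members, 30 components, resolution 0.5) gave clusters, and those of endothelial cells were clustered again. Names came from marker lists; the score thresholds for a name were chosen after the clusters were seen. For each class, the UMIs of all its cells in a library (at least 20) were added up and tested with edgeR 4.0.16 (quasi-likelihood, TMM, filterByExpr; limma 3.58.1, R 4.3.3), with Benjamini-Hochberg adjustment over all genes and a threshold of 0.05. Ages were tested per class. Classes were tested with library as a term, and age by class with a further term. The summed pair was an added row. The test was checked on simulated counts. The precision of levels is given as the SD over libraries, and UMI shares cover counting error only.

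The 10 members, the gene lists and the tests were chosen with earlier results of these data known. The rule for named genes took the 10 members and the pair's sum in every comparison, up to 4 genes of each other list per comparison with at least 50 CPM and the smallest p, of which the text gives some, and the 5 genes most like a member in pattern. Alternatives were leaving out each library, DESeq2 1.42.0 and its size factors, other filters, thinned sums, another resolution, a replicate block, and, chosen after seeing the data, total-count scaling and libraries with more Ddx3y than Xist. Replicate numbers were not taken as pairs: same-numbered libraries of the 2 ages had correlations of deviations of -0.066 to 0.266. Differently numbered libraries were not set beside them, so these values cannot show whether the numbers pair the samples. Sequences and gene positions came from RefSeq tables and the GRCm38 annotation.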

Additional observations from a re-analysis of the deposited data

Results flagged for a closer look

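Within a group of 4 libraries, 1 value stood far from the others in 4 of 66 groups examined (a gene or the pair's sum in a class at 3 months); chance flags about 1 in 20 groups. All 4 were in microglia. The 3-month replicate 1 had 1577 CPM of Hspa1a, where the other 3 libraries had 640.6 to 747 CPM, and 1152 CPM of Hspa1b, where the others had 543 to 638 CPM. Their sum there was 2728 CPM, against 1215 to 1385 CPM in the others. Hsph1 in 3-month replicate 3 was low, at 20.1 CPM, where the others had 34.2 to 35.7 CPM.

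The age difference of a gene differed from that of capillary cells, by the class by age term, in 13 cases. In arterial cells it was larger for Hspa1a by 0.92 and for the summed pair by 0.91 (log2), and in venous cells for Hspa1b by 0.53. In smooth muscle cells the terms were -0.44 for Hspb1, -0.76 for Dnajb1, -0.46 for Hspa8, -1.22 for Hspa1b, -0.77 for Hspa1a and -0.78 for the sum. In microglia they were -0.69 for Dnajb1, -1.36 for Hspa1b, -1.01 for Hspa1a and -1.20 for the sum. Without 3-month replicate 1 the microglial terms of Hspa1b and Hspa1a were -1.29 and -0.75 (adjusted p = 4.39e-05 and 0.0312).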

How the results depend on the processing

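Over 70 called values of single genes or the summed pair and 1212 alternative values of them, 1088 kept direction and side of the threshold, 122 kept direction only and 2 reversed: Hspa8 in pericytes over smooth muscle cells became 0.079 with total counts and 0.049 with thinned sums. Leaving out 1 library at a time, the number of members called ran from 1 to 4 in capillary (2 with all libraries), 0 to 1 in arterial (1) and 2 to 4 in venous cells (2), 1 to 2 in microglia (2) and stayed at 1 in smooth muscle cells and 0 in pericytes for the ages. It ran from 2 to 5 in arterial over capillary cells (5), 6 to 7 in venous over capillary and over arterial cells (6), 8 to 9 in smooth muscle over capillary cells (8), 7 to 9 in pericytes over smooth muscle cells (9) and 9 to 10 in microglia over capillary cells (10). For the age by class terms it ran from 0 to 2 in arterial and venous cells (1), 2 to 5 in smooth muscle cells (5) and 2 to 4 in microglia (3).

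Counts of called members moved by over 1.5 times as follows. Among libraries with more Ddx3y than Xist, an alternative chosen after seeing the data, 1 was called between ages in capillary cells, 0 in arterial cells and 1 in microglia, and the terms gave 0 in arterial, 0 in venous and 2 in smooth muscle cells and 1 in microglia. With no filter beyond 1 count, 5 were called in capillary cells, 2 in arterial cells and 4 in microglia, and 2 terms each in arterial and venous cells. At 50 CPM or more, which leaves out Hsph1, 1 was called in capillary, 0 in arterial and 1 in venous cells, and 0 terms in arterial and 2 in smooth muscle cells. At resolution 1.0 the ages gave 3 in arterial cells, and the terms 2 in arterial and 0 in venous cells. DESeq2 gave 2 in arterial and 4 in venous cells between ages, 3 in arterial over capillary cells and 0 arterial terms. With cells of at least 1000 genes 1 was called in microglia and 0 venous terms, and with at most 10% mitochondrial UMIs 3 terms in smooth muscle cells. Thinned sums gave 3 in arterial over capillary cells, 3 in pericytes over smooth muscle cells, and 2 arterial, 0 venous, 1 smooth muscle and 1 microglial terms. Total counts, also chosen after seeing the data, gave 5 in pericytes over smooth muscle cells and 2 terms in smooth muscle cells. The replicate block, though the numbers were not taken as pairs, gave 1 in capillary cells and 1 in microglia between ages and changed no other count. For each of these the cause was not tested. Some alternatives also leave a smaller number of genes or libraries, and the part of that was not tested either.

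Total counts moved the median of all genes by 0.39 in pericytes over smooth muscle cells, -0.13 in smooth muscle over capillary cells and 0.12 for the smooth muscle terms (log2). Depth limits Hsph1 most, at 1 to 364 UMIs per sum, and pericytes of 12-month replicate 1, at 29 cells. Age, index type, Cell Ranger version and depth per cell change together and cannot be told apart. The mix of libraries with more Ddx3y or more Xist also differs between ages.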

Other observations

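Endothelial clusters left without a name also differed in the summed pair. The cluster led by Plvap had 970.4 ± 433 CPM (SD, n = 7), the cluster led by interferon-response genes 505 ± 184 CPM, and the cluster led by Pi16, in the 4 libraries with at least 20 of its cells, 1156 ± 370.0 CPM. These are values of clusters with no test.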
